A study of Mus musculus with 4 samples.

Results

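Apln, Aplnr, Apela, Cxcl12, Cxcr4 and Ackr3 make up a pair of ligand and receptor systems that were followed here through the cells of the mouse pharyngeal region and heart. They were picked by name from the gene symbols of the count matrices and are 6 of the 32285 genes measured, and each had UMIs (counted transcript molecules) in every library. Single cells of the Tbx1 lineage were sequenced from E9.5 embryos, labelled as outbred SwissWebster and described in the methods of the study as a mixed C57BL/6 and Swiss Webster background, after dissection of the pharyngeal region with the heart and sorting for GFP. The conditional heterozygote (cHet) embryos were Tbx1Cre/+; Kmt2d F/+; GFP F/+ and the conditional knockout (cKO) embryos were Tbx1Cre/+; Kmt2d F/F; GFP F/+. Kmt2d encodes a histone H3 lysine methyltransferase, and Cre was driven from the Tbx1 locus, so that both groups carried a single functional Tbx1 allele. Each library was a pool of 4 embryos in Rep1 and of 3 embryos in Rep2, which gave 2 libraries per genotype, and the replicates used different 10x 3′ kits.

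Apln and Apela encode secreted peptides that both signal through Aplnr, a G-protein-coupled receptor known for its roles in heart and blood vessel development. Cxcl12 is a chemokine that guides migrating cells through the receptor Cxcr4. Ackr3 also binds Cxcl12, but it is an atypical receptor that mostly takes the chemokine up and removes it. In mm10 the ligand genes lie on chromosome X from 48025146 to 48034853 (Apln), chromosome 8 from 65028417 to 65037336 (Apela) and chromosome 6 from 117168535 to 117181367 (Cxcl12). The receptor genes lie on chromosome 2 from 85136225 to 85139923 (Aplnr), chromosome 1 from 128588199 to 128592293 (Cxcr4) and chromosome 1 from 90203980 to 90216751 (Ackr3). All 6 are protein-coding genes, and Apela overlaps Gm45886 on the same strand, so the split of UMIs between these genes is uncertain.

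The libraries held 179454146 to 234726019 UMIs, and 33448 of 76367 barcodes were kept as cells, 5869 to 11938 per library, with median UMIs per cell of 17241 to 22972. The cHet library of Rep1 stood apart, with 37093 barcodes against 9307 to 16775 in the others and 60.0% of its UMIs in kept cells against 86.1 to 91.6%. Kept cells shared 12 barcodes between the Rep1 libraries and 41 between the Rep2 libraries. Clusters were named from marker lists, and each name below means cells like that type by its markers. The 9 named types were epithelium, endothelium, mesenchyme, neuronal cells, cardiac muscle, anterior and posterior second heart field (aSHF and pSHF), multilineage primed progenitors (MLP) and cells with branchiomeric muscle markers (BrM, 2 clusters of 2252 and 1127 cells). A further 7596 cells stayed unnamed. Kmt2d itself stood at 17.4 and 23.9 CPM (UMIs per 1000000 UMIs) in the cHet libraries of Rep1 and Rep2 and at 15.3 and 21.0 CPM in the cKO libraries, but the position of these 3′ UMIs relative to the floxed exons was not examined, so they are no check of the deletion.

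Levels are given as CPM of the summed UMIs of a type, per library and as mean ± SD over the 4 libraries. They describe where each gene was read and carry no test, because the clusters came from the same cells and 4 of the 6 genes (Apln, Aplnr, Apela and Cxcl12) were among the genes used for clustering. With these genes left out of the clustering, and under each of the other 4 ways of counting or choosing cells that were tried, the highest named type of every gene was the same. Barcodes under 1000 UMIs, in which free RNA weighs more, are given as a background for each gene. There were 573 to 6324 such barcodes per library, and for genes other than Cxcl12 they held 0 to 63 UMIs of a gene. Small differences from this background are therefore not resolved. As in any sum over cells, fewer expressing cells and less RNA per cell cannot be told apart.

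**Figure D1:**
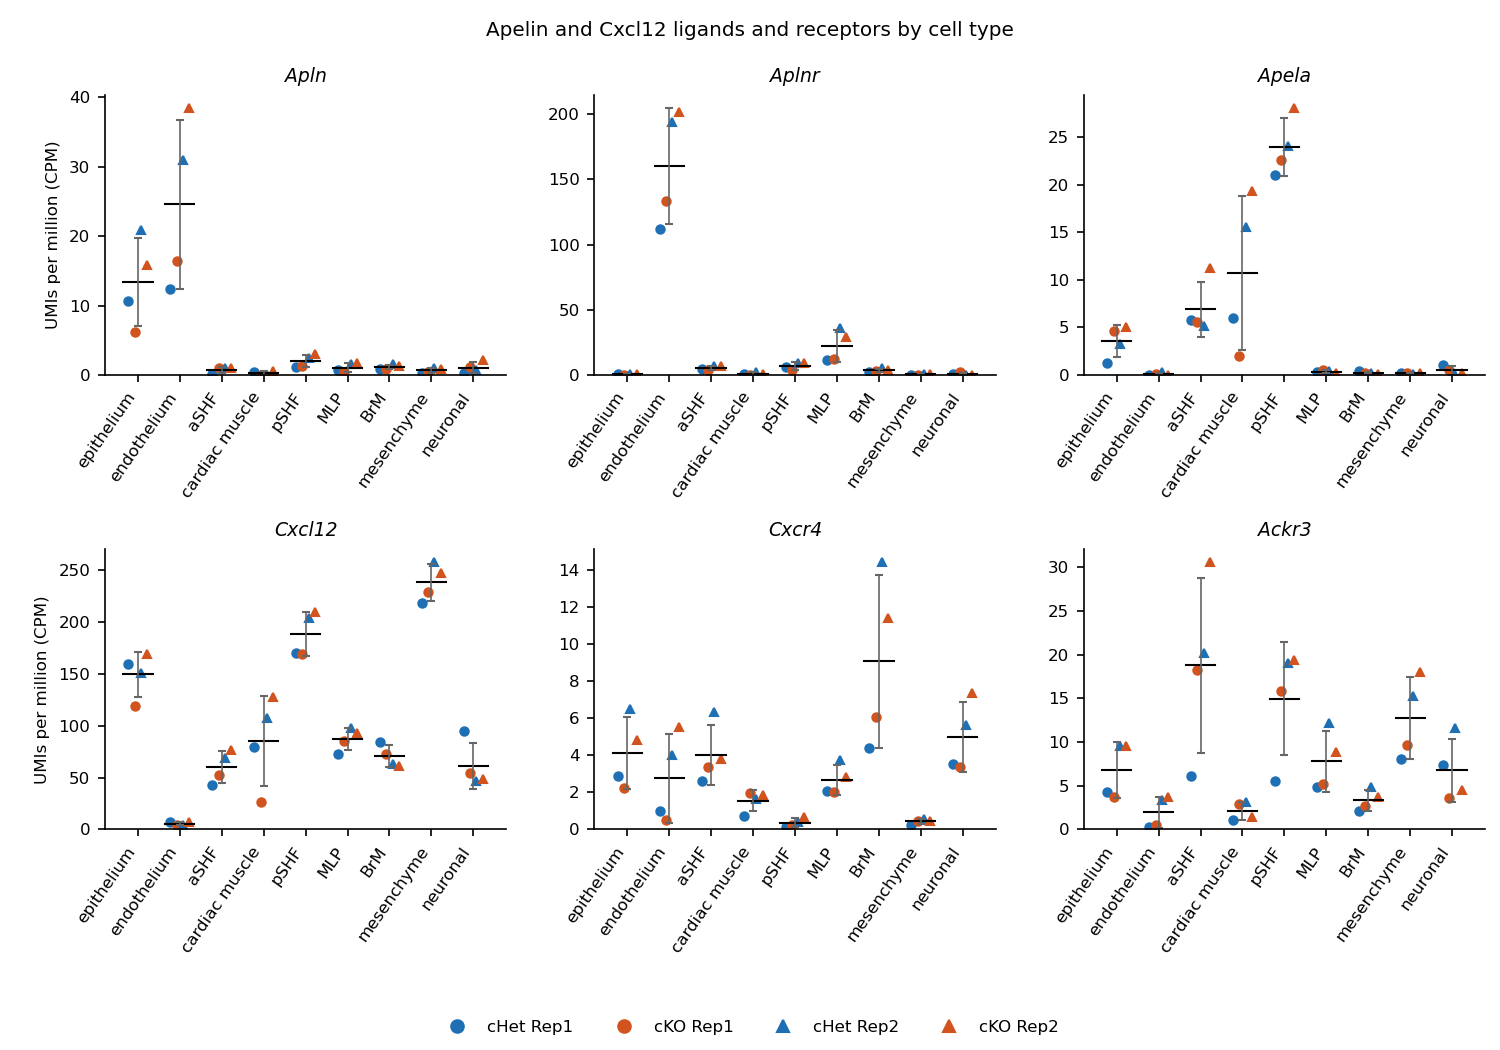
UMIs per 1000000 UMIs (CPM, linear axes that differ between panels) of the 6 genes in the 9 named cell types. Points are libraries (circles Rep1, triangles Rep2, blue cHet, orange cKO), and black lines with bars are the mean ± SD of 4 libraries. Aplnr was highest in the endothelium (160.3 CPM), Apela in the pSHF (23.9 CPM), Cxcl12 in the mesenchyme (237.7 CPM) and Cxcr4 in BrM (9.08 CPM).

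Among the named types, the ligand Apln was highest in the endothelium and the epithelium. In the endothelium it stood at 12.5 and 31.0 CPM in the cHet libraries of Rep1 and Rep2 and at 16.4 and 38.5 CPM in the cKO libraries (24.6 ± 12.2 CPM, SD, n = 4). In the epithelium it stood at 10.7 and 20.9 CPM in cHet and at 6.23 and 15.9 CPM in cKO (13.4 ± 6.34 CPM). The ranges of these neighbours overlapped, although the endothelium was above the epithelium in each of the 4 libraries. The pSHF followed at 1.98 CPM, below the epithelium in every library and without overlap, and the remaining named types were at 1.14 CPM or less. The unnamed cells were at 1.25 CPM and held 6.60 to 9.51% of the Apln UMIs. Of their clusters, one of 668 cells with neural leading genes was at 4.45 ± 3.73 CPM (0.862 to 9.67 CPM). Barcodes under 1000 UMIs carried 0 to 5.42 CPM of Apln, below the endothelium and the epithelium in each library. Values were higher in both Rep2 libraries than in either Rep1 library within the endothelium, so that replicate, and with it the kit, moved with the level. Endothelial cells were 4.32 to 6.73% of the cells and held 39.9 to 51.7% of all Apln UMIs.

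Within the epithelium, Apln belonged to an ectoderm subcluster led by Neurog2. Its 582 cells carried 29.5 and 93.4 CPM in cHet and 29.9 and 49.5 CPM in cKO (50.6 ± 30.1 CPM). The other ectoderm subcluster, led by Tfap2b, stood at 7.64 ± 1.86 CPM, and the endoderm (2.07 CPM) and otic vesicle (0.425 CPM) were lower still. Apln was itself among the 10 leading genes of the Neurog2-led subcluster, also when the 6 genes were left out of the clustering (567 cells). Within the endothelium, the 1388 cells outside the named subclusters carried 14.6 and 41.6 CPM in cHet and 19.0 and 51.5 CPM in cKO, against a mean of 3.83 CPM in the progenitor endothelium, which is marked by Etv2, Tal1 and Lmo2.

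The receptor Aplnr had the largest share of its UMIs in a single type among the 6 genes. Endothelial cells carried 112.1 and 194 CPM in cHet and 133.1 and 201.8 CPM in cKO (160.3 ± 44.4 CPM), and they held 67.0 to 79.4% of all Aplnr UMIs. MLP, a progenitor population with Hox gene expression, came next among the named types at 11.9 and 35.9 CPM in cHet and 12.2 and 29.4 CPM in cKO (22.4 ± 12.2 CPM). The ranges of endothelium, MLP and pSHF (7.11 CPM) did not overlap, whereas those of pSHF, aSHF (5.45 CPM) and BrM (3.64 CPM) overlapped between neighbours. All other types were at 1.04 CPM or less. Barcodes under 1000 UMIs carried 2.39 to 13.3 CPM of Aplnr. This was from 63 and 6 UMIs in cHet and 1 and 16 UMIs in cKO of Rep1 and Rep2. In the cHet library of Rep1 these barcodes stood above MLP, pSHF, aSHF and BrM, and in the cKO library of Rep2 above pSHF, aSHF and BrM. In the cHet library of Rep2 they were at 5.42 CPM, against 5.10 CPM in BrM, a difference that 6 UMIs do not resolve. The levels of these types are thus not shown to exceed background in every library. After each cell was thinned to 5000 UMIs, 35.4 to 54.1% of endothelial cells had an Aplnr UMI, against 0.0411 to 0.329% of mesenchymal cells, the named type with the lowest Aplnr level. Unthinned median depths were 16629 to 27141 UMIs in the endothelium and 17721 to 23377 UMIs in the mesenchyme. The ectoderm, the part of the epithelium that held Apln, had 1 Aplnr UMI in all 4 libraries together. In the endothelium the receptor was concentrated in the cells outside the named subclusters (208.5 ± 73.6 CPM), and the progenitor endothelium stood at 18.3 ± 6.89 CPM.

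**Figure D2:**
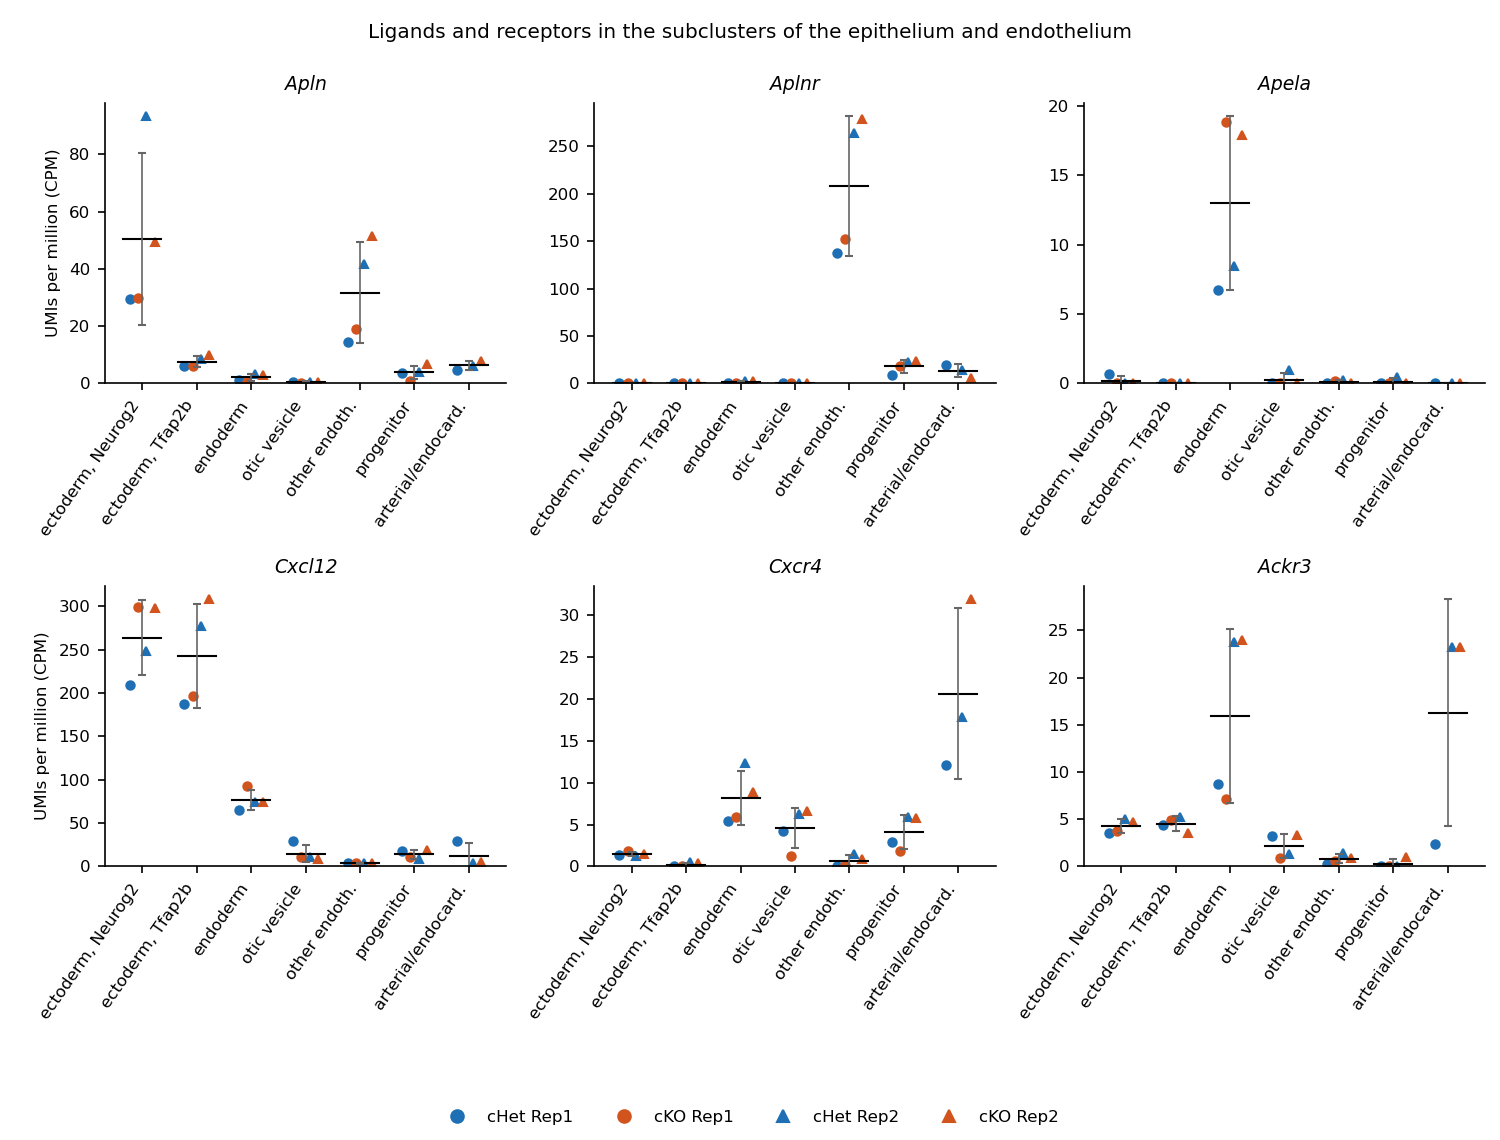
UMIs per 1000000 UMIs (CPM, linear axes that differ between panels) of the 6 genes in the subclusters of the epithelium (2 ectoderm subclusters named by their leading gene, endoderm, otic vesicle) and endothelium (cells outside the named subclusters, progenitor, and a subcluster with arterial and endocardium markers). Points are libraries, black lines with bars are the mean ± SD, and a library with under 20 cells of a subcluster is not drawn, which removes cKO Rep1 (2 cells) from the arterial and endocardial panel position. By the mean, Apln was highest in the Neurog2-led ectoderm and Aplnr in the endothelium outside the named subclusters, but in cKO Rep2 Apln was at 49.5 CPM in the former and 51.5 CPM in the latter.

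The peptide Apela was read in other places than Apln. It was highest in the pSHF, where progenitors of the venous pole and atria lie, with 21.0 and 24.1 CPM in cHet and 22.6 and 28.1 CPM in cKO (23.9 ± 3.02 CPM). Cardiac muscle had 6.0 and 15.6 CPM in cHet and 1.96 and 19.4 CPM in cKO (10.7 ± 8.11 CPM). The range of the pSHF lay above that of cardiac muscle, while the ranges of cardiac muscle and aSHF (6.93 ± 2.89 CPM) overlapped. The lowest cardiac value rests on 2 UMIs from 38 cells. The pSHF held 44.6 to 58.5% of all Apela UMIs in 2.80 to 6.07% of the cells. In the endothelium, where the shared receptor was highest, Apela had 4 UMIs in all (0.101 CPM), and in the epithelium (3.57 CPM) it was highest in the endoderm (13.0 ± 6.28 CPM). Barcodes under 1000 UMIs carried 0 to 4.79 CPM of Apela, from at most 11 UMIs per library, and in both Rep1 libraries this was above the epithelium as a whole but below the endoderm. In the cKO library of Rep1 it was also above cardiac muscle (4.79 against 1.96 CPM).

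The chemokine Cxcl12 was highest, among the named types, in the mesenchyme. The mesenchyme carried 217.9 and 257.2 CPM in cHet and 228.4 and 247.2 CPM in cKO (237.7 ± 17.8 CPM), and 58.6 to 63.0% of its thinned cells had a UMI. The unnamed cells were above it in each library (230.3 to 300.5 CPM, 265.3 ± 36.1 CPM) and held 29.3 to 35.1% of the Cxcl12 UMIs, with 356.3 ± 28.9 CPM in their largest cluster. The pSHF (188.0 ± 21.5 CPM), epithelium (149.3 ± 21.5 CPM) and MLP (87.1 ± 10.7 CPM) followed in steps whose ranges did not overlap. From MLP down through cardiac muscle (85.1 CPM), BrM (70.5 CPM), neuronal cells (61.1 CPM) and aSHF (60.3 CPM) each range overlapped the next. The endothelium stood apart at 4.33 to 6.97 CPM, with a UMI in 2.21 to 3.54% of thinned cells. Barcodes under 1000 UMIs carried 110.1 to 157.9 CPM of Cxcl12. Mesenchyme, pSHF and epithelium were above these barcodes in each library. Within the mesenchyme, a cluster of 3698 cells led by Zic1 (103.6 to 132.1 CPM) was above these barcodes only in the cHet library of Rep2. MLP, BrM, neuronal cells, aSHF and endothelium were below them in each library, and cardiac muscle in 3 of 4, so levels above background were not shown for these types. In the epithelium the ectoderm reached 253.7 ± 41.3 CPM, and 182 cells of no named subcluster were at 188.4 (from 14 cells) to 390.1 CPM, against 76.3 ± 11.6 CPM in the endoderm and 14.5 ± 9.70 CPM in the otic vesicle. Among mesenchymal clusters, a group of 301 cells led by the smooth muscle genes Tagln, Myl9 and Acta2 had the highest level, at 638.1 ± 71.2 CPM.

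The receptor Cxcr4 was below 10 CPM on average in each named type. BrM cells, marked by the muscle regulators Msc, Tcf21 and Myf5, had 4.38 and 14.4 CPM in cHet and 6.09 and 11.4 CPM in cKO (9.08 ± 4.66 CPM). BrM was the highest type in each library and held 27.5 to 50.5% of the Cxcr4 UMIs, but its range overlapped that of the neuronal cells (4.99 ± 1.91 CPM). The larger BrM cluster had 7.87 ± 4.04 CPM of Cxcr4 and 1.10 ± 0.305 CPM of Aplnr, and the smaller one 11.4 ± 6.10 CPM and 8.52 ± 3.04 CPM. The Rep2 libraries were again above the Rep1 libraries. Barcodes under 1000 UMIs carried 0.903 to 2.39 CPM of Cxcr4, below BrM in each library. After thinning, 2.66 to 7.30% of BrM cells had a Cxcr4 UMI, against 0.123 to 0.292% in the mesenchyme, and median depths in BrM were 18074 to 26732 UMIs. Mesenchyme and pSHF, the named types highest in Cxcl12, were lowest in Cxcr4 (0.435 and 0.361 CPM). In the endothelium Cxcr4 was read in the subcluster with arterial and endocardium markers, at 12.1 and 17.9 CPM in cHet and 31.97 CPM in the Rep2 cKO library.

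Among the named types Ackr3 had its highest levels in the heart field progenitors and the mesenchyme, with an order that the replicates could not resolve. The aSHF had 6.12 and 20.2 CPM in cHet and 18.3 and 30.6 CPM in cKO (18.8 ± 10.0 CPM). The pSHF had 5.55 and 19.0 CPM in cHet and 15.8 and 19.4 CPM in cKO (14.95 ± 6.48 CPM). The mesenchyme had 8.08 and 15.3 CPM in cHet and 9.70 and 18.0 CPM in cKO (12.8 ± 4.66 CPM). Every neighbouring pair of types in the order overlapped, and the aSHF was the highest in 3 of 4 libraries. Low-UMI barcodes carried 5.18 to 7.78 CPM of Ackr3, which is close to the levels of the MLP (7.79 CPM), neuronal (6.77 CPM) and epithelial cells (6.76 CPM). This was from 37 and 6 UMIs in cHet and 3 and 7 UMIs in cKO of Rep1 and Rep2. Small differences from these barcodes are therefore not resolved. In the cHet library of Rep1, where they carried 7.78 CPM, the aSHF and pSHF were below them as well, while the mesenchyme was above them in each library. Its clusters differed: those led by Pcdh9 and Tagln had means of 23.3 and 28.5 CPM. Those led by Zic1 and Vtn had 4.97 and 6.5 CPM and were below the low-UMI barcodes in both Rep1 libraries. In thinned cells an Ackr3 UMI was seen in 3.64 to 10.9% of the aSHF and in 0 to 1.96% of the endothelium. The endothelium as a whole was the lowest type, at 1.97 ± 1.79 CPM. Some subclusters reached higher levels. The endoderm had 8.75 and 23.8 CPM in cHet and 7.15 and 23.9 CPM in cKO (15.9 ± 9.20 CPM). The subcluster with arterial and endocardium markers had 23.2 CPM in the Rep2 cHet library and 23.3 CPM in the Rep2 cKO library. In the Rep1 cHet library it had 2.41 CPM, from 1 UMI in 28 cells and below the low-UMI barcodes.

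Ligand and receptor were then set side by side within single thinned cells. Among endothelial cells, an Aplnr UMI was seen in 52.4% of cells with an Apln UMI and 34.5% of those without in the cHet library of Rep1, and in 79.0% and 50.8% in that of Rep2. In the cKO library of Rep1 the shares were 41.2% and 46.3%, and in that of Rep2 they were 68.6% and 49.1%. The direction was therefore not the same in all libraries, and the cells with an Apln UMI numbered only 17 to 86 per library. In endothelial cells outside the named subclusters, the Rep1 shares were 57.9% and 45.4% in cHet and 41.2% and 52.8% in cKO. The Rep2 shares there were 81.7% and 69.2% in cHet and 72% and 68.4% in cKO. The part of the subcluster mix in the values of the whole endothelium was not tested. In the pSHF, 0 to 2.78% of cells with an Apela UMI had an Aplnr UMI, against 1.23 to 5.07% of those without, and the share was lower with Apela in each library, from 14 to 72 such cells. In the mesenchyme, 5.19 to 9.53% of cells with a Cxcl12 UMI had an Ackr3 UMI, against 3.74 to 6.71% of those without, and the share was higher with Cxcl12 in each library. Its clusters ranged from 118.0 CPM of Cxcl12 and 4.97 CPM of Ackr3 (led by Zic1) to 638.1 and 28.5 CPM (led by Tagln). The part of this mix was not tested. In the pSHF the Ackr3 share was lower with Cxcl12 in each library (0.714 to 6.79% against 4.58 to 10.5%), from 1 to 22 cells with both UMIs, and in the aSHF the libraries differed in direction. In BrM, 2.3 to 5.58% of cells with a Cxcl12 UMI had a Cxcr4 UMI, against 2.31 to 7.75% of those without, again with differing directions. For the receptors of Cxcl12 in BrM, 0 to 3.70% of cells with a Cxcr4 UMI also had an Ackr3 UMI, against 0.648 to 2.29% of those without, with no common direction.

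Over the 9 types, the patterns of Apln and Aplnr correlated with r = 0.64, and those of Cxcl12 and Ackr3 with r = 0.59. Cxcl12 ran against Aplnr (r = -0.79) and was weakly related to Cxcr4 (r = -0.32). These are Pearson correlations of mean log2(CPM + 5) over types that share the same 4 libraries, given as descriptions. The endothelium was highest in both Apln and Aplnr and lowest in Cxcl12. The type next for Apln, the epithelium (13.4 CPM), had 0.626 CPM of Aplnr. MLP, next for Aplnr (22.4 CPM), had 1.08 CPM of Apln. The correlations without the endothelium were not computed. Among 8867 genes that reach 20 CPM in a type, the pattern most like Apln was that of Slc39a8 (r = 0.979), most like Aplnr that of Vamp5 (r = 0.979), most like Apela that of D030025E07Rik (r = 0.958) followed by Tbx5 (r = 0.956), and most like Cxcl12 that of Plscr1 (r = 0.958). Cxcr4 and Ackr3 did not themselves reach 20 CPM, and their nearest genes were Cdc42ep3 (r = 0.867) and Cep57l1 (r = 0.945).

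The genotypes were compared within each type by the edgeR quasi-likelihood test on UMIs summed per library, blocked by replicate, and p-values were adjusted over all genes tested by the Benjamini-Hochberg method. Log2 fold changes are cKO over cHet, with TMM scaling and their standard errors (SE). With the replicate as a block, the p-values rest on how far the genotype differences of the 2 replicates disagree. They also rest on dispersion shared with the other genes. The spread between the pools of a genotype is largely taken up by the block. Fits with a library left out had no replicate block, so genotype and kit were mixed in them. A gene entered the test of a type only if it passed the filter on low counts, which gave 42 combinations of a gene and a type. None of the 42 passed an adjusted p of 0.05, and the lowest was 0.0616. At an unadjusted p under 0.05 there were 8 of 42, beside 6.11% of all genes and types tested. The same direction in both replicates was seen in 18 of 42. The genes called among all tested were 0.0619% in the endothelium, 0.0213% in the epithelium, 0.113% in the aSHF, 0.101% in cardiac muscle, 0.251% in MLP, 0% in the pSHF, 1.07% in BrM, 0.0249% in neuronal cells and 2.01% in the mesenchyme.

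**Figure D3:**
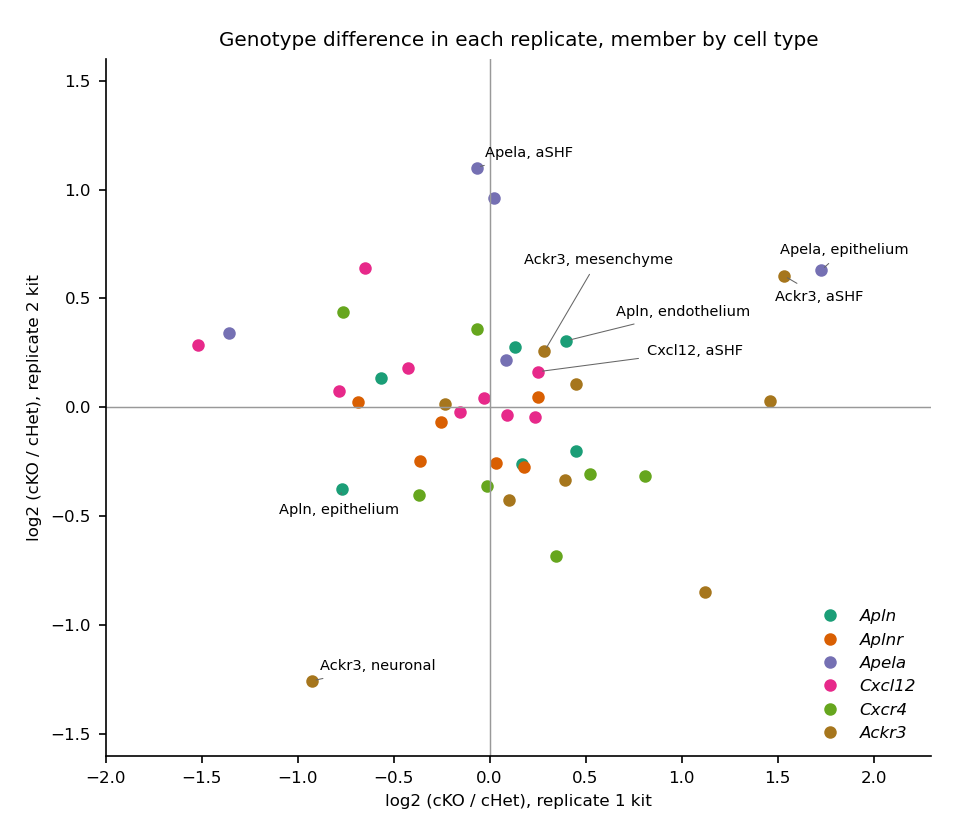
Log2 ratio of cKO to cHet within Rep1 (horizontal axis) and within Rep2 (vertical axis) for the 42 tested combinations of a gene and a cell type, coloured by gene. Labelled points had an unadjusted p under 0.05 in the edgeR quasi-likelihood fit, and none passed 0.05 after Benjamini-Hochberg adjustment. The points are spread over all quadrants, with 18 of 42 having the same sign in both replicates.

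Ackr3 in the aSHF came nearest to the threshold. From the levels above, cKO was higher than cHet in both replicates, but the cKO library of Rep1 (18.3 CPM) was below the cHet library of Rep2 (20.2 CPM), so the groups overlapped. The log2 fold change was 0.94 (SE 0.18, edgeR quasi-likelihood adjusted p = 0.0616), with 1.53 from Rep1 alone and 0.60 from Rep2 alone. With no replicate block, and so with kit and genotype mixed, it was 0.43 without the cHet library of Rep1 and 1.78 without the cHet library of Rep2. In that cHet library of Rep1, Ackr3 lay below the low-UMI barcodes. After thinning, with the block kept, the value was 0.58 (edgeR adjusted p = 0.786). Other marker lists moved with it in Rep1: the summed level of the 5 pSHF markers in these cells was 60.3 and 97.2 CPM in cHet and 115.0 and 109.0 CPM in cKO, and that of the 6 epithelium markers was 182.0 and 135.0 CPM in cHet and 290.0 and 165.0 CPM in cKO. All members of both lists had UMIs, and their part in the result was not tested. In the mesenchyme Ackr3 had a value of 0.27 (log2 scale, SE 0.084, edgeR adjusted p = 0.122), at 0.29 and 0.26 in Rep1 and Rep2. That value was -0.0026 with doublets kept, a setting in which the cells were clustered and named anew. There, clusters led by Pcdh9 (2913 cells) and Dach2 (2175 cells) stayed unnamed. In the reported clustering Pcdh9 led the largest mesenchymal cluster (3971 cells), and the part of this change was not tested. With a library left out and no replicate block, the value was -0.0053 without the cHet library of Rep1 and -0.063 without the cKO library of Rep2. In the pSHF the value was 0.45 (SE 0.27), from 1.46 in Rep1, with the cHet library again below the low-UMI barcodes, and 0.03 in Rep2.

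Neuronal cells gave Ackr3 values on the other side of 0. There it had 7.37 and 11.6 CPM in cHet and 3.65 and 4.49 CPM in cKO, without overlap of the groups. The log2 fold change was -1.20 (SE 0.32, edgeR adjusted p = 0.603), and it rests on 13 to 45 UMIs per library. In 3 of the 4 libraries these levels were below those of the low-UMI barcodes. Those barcodes held 3 to 37 Ackr3 UMIs per library, so this order is not resolved. The 6 mesenchyme markers summed to 559.0 and 178.0 CPM in cHet and 360.0 and 166.0 CPM in cKO in these neuronal cells, and their part in the result was not tested.

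In the named types where they were highest, neither Cxcl12 nor Cxcr4 was called between genotypes. For Cxcl12 the log2 fold change was 0.03 (SE 0.049) in the mesenchyme and 0.01 (SE 0.062) in the pSHF. It was 0.20 (SE 0.089, edgeR adjusted p = 0.956) in the aSHF, a value that turned negative with barcodes of at least 1000 genes. For Cxcr4 in BrM it was -0.04 (SE 0.18), but the replicates had opposite signs, with 0.52 in Rep1 and -0.31 in Rep2. In the otic vesicle, where 1.26% of genes tested were called, Cxcl12 had 28.9 and 10.5 CPM in cHet and 10.3 and 8.14 CPM in cKO, all below the low-UMI barcodes of the same library. The log2 fold change of -0.93 (SE 0.29, edgeR adjusted p = 0.0966) leaned on the cHet library of Rep1, in which the 6 mesenchyme markers were also highest (301.0 CPM, against 119.0 to 213.0 CPM in the other libraries). Their part in the result was not tested. Without that library, and with no replicate block, the value was 0.0085. In the ectoderm, where 0% of genes were called, the log2 fold change of Cxcl12 was 0.27 (SE 0.075, edgeR adjusted p = 1.0).

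Of the apelin genes, the receptor Aplnr gave log2 fold changes of 0.14 (SE 0.072, edgeR adjusted p = 0.999) in the endothelium and -0.16 (SE 0.10) in MLP. Apela in the pSHF stood at 0.17 (SE 0.12). In the epithelium, Apela had 1.29 and 3.26 CPM in cHet and 4.63 and 5.07 CPM in cKO, a log2 fold change of 1.052 (SE 0.33, edgeR adjusted p = 0.881). These UMIs were mostly endodermal. In the endoderm, where 0.08% of genes were called, Apela had 6.73 and 8.45 CPM in cHet and 18.9 and 17.9 CPM in cKO, so that the groups did not overlap. These levels rest on 10 and 32 UMIs in cHet and 29 and 104 UMIs in cKO. After thinning, 2.74 and 5.52% of the endoderm cells had an Apela UMI in cHet and 3.175 and 8.10% in cKO. The shares in Rep1 were thus close, from 73 and 63 cells. The log2 fold change there was 1.20 (SE 0.30, edgeR adjusted p = 0.269), at 1.34 in Rep1 and 1.06 in Rep2. In the aSHF the Apela value of 0.62 (SE 0.26, edgeR adjusted p = 0.908) came from Rep2, since it was -0.07 in Rep1 and 1.10 in Rep2.

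Apln had values on opposite sides of 0 in the types where it was highest. In the endothelium the log2 fold change was 0.34 (SE 0.12, edgeR adjusted p = 0.708), and it was 0.40 in Rep1 and 0.31 in Rep2. With a library left out and no replicate block, kit and genotype were mixed. The value was then -0.029 without the cHet library of Rep1 and -0.14 without the cKO library of Rep2. In the epithelium the log2 fold change was -0.51 (SE 0.17, edgeR adjusted p = 0.885), and it was -0.77 in Rep1 and -0.37 in Rep2. Within each replicate, cKO was thus above cHet in the endothelium and below it in the epithelium, while the genotypes overlapped across replicates in both types. In the Neurog2-led subcluster Apln was not lower in cKO in Rep1 (29.9 against 29.5 CPM in cHet). The value for the whole ectoderm, -0.46 (SE 0.16, edgeR adjusted p = 1.0), was 0.19 without the cHet library of Rep2 and with no replicate block. The Neurog2-led subcluster that carried most epithelial Apln made up 29.1 and 19.4% of epithelial cells in cHet and 17.1 and 28.6% in cKO, and its part in the epithelial value was not tested.

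**Figure D4:**
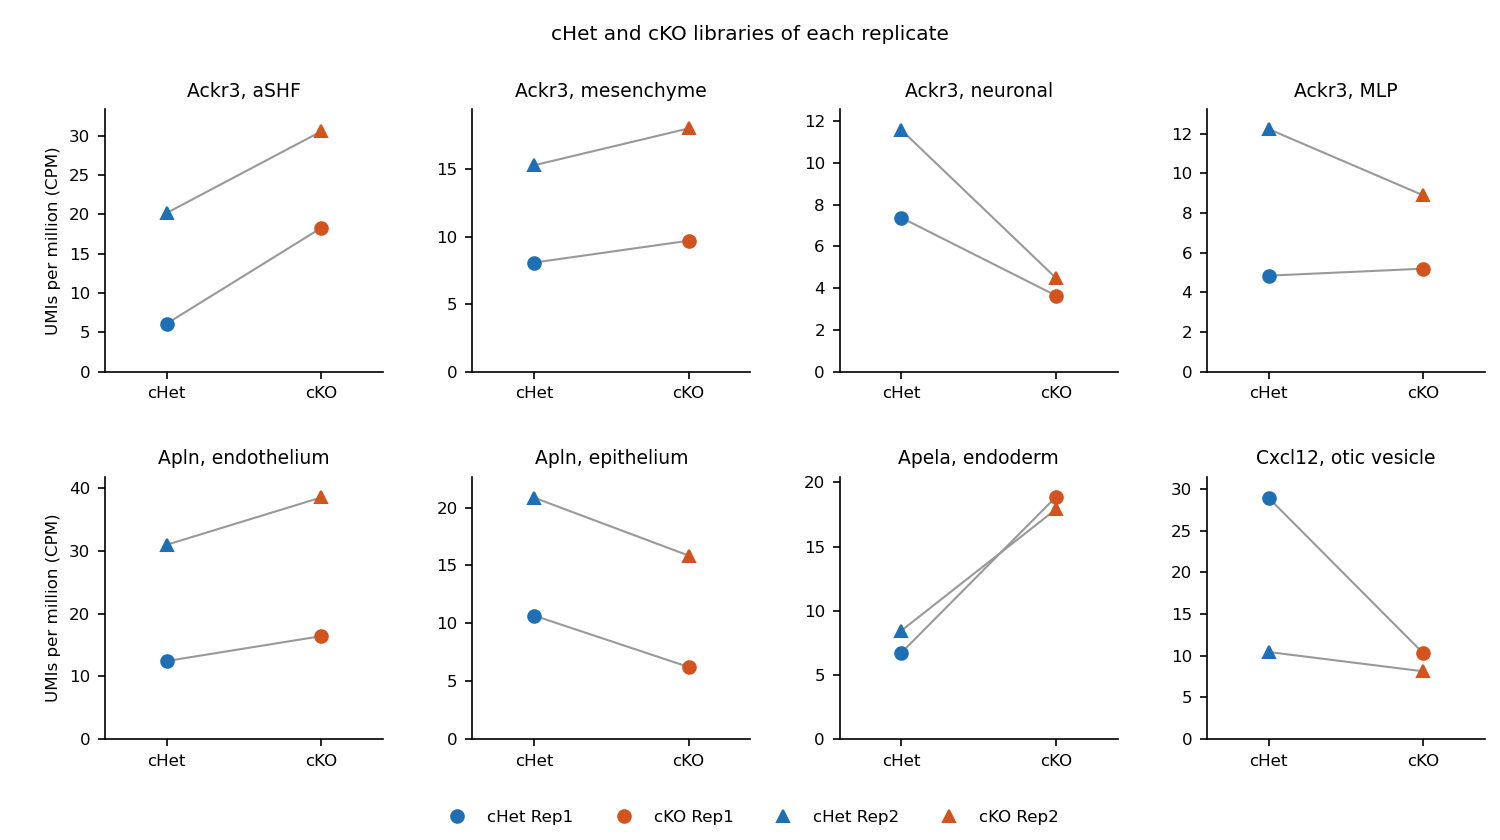
UMIs per 1000000 UMIs (CPM, linear axes) of selected genes and types, with the cHet and cKO libraries of each replicate joined by a line. Within each replicate Apln is above cHet in the cKO endothelium (16.4 against 12.5 CPM in Rep1, 38.5 against 31.0 CPM in Rep2) and below it in the cKO epithelium (6.23 against 10.7 CPM, 15.9 against 20.9 CPM), but no fold change of a single type passed an adjusted p of 0.05.

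Whether the genotype effect itself differed between types was tested by an interaction term for the 6 pairs among epithelium, endothelium, aSHF with cardiac muscle, and MLP, which gave 35 tests of the 6 genes. For 2 of the 35 the adjusted p was under 0.05. The log2 fold change of Apln was 0.83 higher in the endothelium than in the epithelium (SE 0.18, edgeR quasi-likelihood adjusted p = 0.0437), a pair in which 0.285% of all genes were called. That of Ackr3 was lower in MLP than in aSHF with cardiac muscle by a difference of -1.20 (SE 0.20, edgeR adjusted p = 0.0229), where 0.1% were called. The make-up of the combined type moved with genotype in Rep1, where cardiac muscle, at 2.17 CPM of Ackr3, was 139 of 551 cells in cHet and 38 of 335 in cKO. Ackr3 in MLP alone had a log2 fold change of -0.25 (SE 0.17) and in aSHF with cardiac muscle 1.00 (SE 0.25, edgeR adjusted p = 0.988). In the remaining pairs no member was called, beside 0.145% of genes for aSHF with cardiac muscle against epithelium, 0.0463% for MLP against epithelium, 0.203% for aSHF with cardiac muscle against endothelium and 0% for MLP against endothelium. Both calls were lost after thinning. Without the replicate block they were lost too, but there 0 of 14758 and 0 of 14971 genes were called. That of Apln was also lost with doublets kept (0.88, 1 of 15088 genes called) and with barcodes of at least 1000 genes (1.04, 0 of 15218 called). With any 1 library left out and no type by replicate term, a genotype was left with 1 library, so only the sizes are given. They were 0.77 to 1.13 for Apln and -1.50 to -1.12 for Ackr3. The direction was the same in each of these fits. Apln kept its call with library totals, with no low-count filter, with the 6 genes left out of the clustering, and with the ectoderm in place of the epithelium (0.82, edgeR adjusted p = 0.0105) or the endothelium outside the named subclusters in place of the whole (0.81, edgeR adjusted p = 0.00309). Ackr3 kept it under the first 3 of these, with doublets kept, with barcodes of at least 1000 genes and with the aSHF alone (-1.16, edgeR adjusted p = 0.00171).

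The wider pathways gave no calls in the 9 named types, and their counts at an unadjusted p under 0.05 stand beside the 6.11% of all tests given above. Of 16 apelin pathway genes, which cover the proteases that cut the peptides and the G proteins, arrestins and transcription factors downstream of the receptor, 0 of 125 tests passed in either direction by edgeR, and 8 had an unadjusted p under 0.05. The medians per type lay between -0.075 and 0.042 on the log2 scale. Of 21 measured Cxcl12 pathway genes, among them the protease Dpp4 and the receptor kinases, 0 of 158 tests passed and 11 had an unadjusted p under 0.05, with medians of -0.123 to 0.036. Of 10 endothelial tip and stalk genes, 0 of 63 tests passed and 6 had an unadjusted p under 0.05. Their medians per type lay between -0.173 and 0.165. In the endothelium the median was 0.103, beside -0.003 over all genes tested, and its unnamed subclusters had medians of 0.219 and -0.158. In the progenitor endothelium, where 0.173% of genes were called, the Notch target Hey1 was higher in cKO (log2 fold change 0.79, SE 0.14, edgeR adjusted p = 0.039), as 1 of 8 genes of this list that were tested there. The Hey1 call was lost by DESeq2 (0.76, adjusted p = 1.0) and after thinning (0.27, edgeR adjusted p = 0.997). Without the replicate block it was lost too (0.77), but there 0 of 9809 genes were called, so the loss was not particular to Hey1. With any 1 library left out, again with no block, a genotype was left with 1 library, so only the size is given. The Hey1 value was then 0.55 to 0.96.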

How the data were processed

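Single-cell RNA was measured in 4 libraries. The authors deposited raw counts of UMIs per gene and barcode; the file headers name Cell Ranger 7.0.1 (Rep1) and 8.0.1 (Rep2), the submitters' processing notes 8.0.1 and mm10. From these counts, barcodes with at least 3000 genes, at most 10% mitochondrial and 5% haemoglobin UMIs were kept, and doublets were removed by Scrublet score: the automatic threshold marked 0.015 to 1.74% of cells, so the 4.03 to 5.78% with the highest scores, near the rate expected for the loading, were taken out. Cells were clustered with scanpy 1.11.5 and leidenalg 0.10.2 (2000 variable genes, 30 components, resolution 0.8), and a cluster was named when at least 3 markers of a list were in 10% of its cells and 2-fold up. A rule added after the data were seen kept 1 cluster with neural leading genes unnamed. The 6 genes and all lists were chosen with earlier results of these data known.

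UMIs were summed per library and type (at least 20 cells in each library) and tested with edgeR 4.0.16 in R 4.3.3 (filterByExpr, TMM, glmQLFTest). The replicate was a block because each replicate had its own kit, and deviations of same-numbered libraries correlated at 0.603 to 0.842. The SE is the log2 fold change over the root of F. Named were the 6 genes, listed genes past the adjusted p, and the 3 genes with the nearest pattern per member. DESeq2 1.42.0, other filters, scalings, thinning and leaving out libraries were alternatives. Fits with a library left out dropped the replicate block, and in the interaction the type by replicate term. The settings with doublets kept, with fewer genes per barcode or with the 6 genes left out clustered and named the cells anew. Counting intervals were not used, and some fits rest on 2 or 3 UMIs in a library. No value column was left without a sample (0).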

Additional observations from a re-analysis of the deposited data

Results flagged for a closer look

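For Apln, the test of a difference in the genotype effect between types passed its threshold: the log2 fold change of cKO over cHet in the endothelium minus that in the epithelium was 0.83 by the edgeR interaction term (adjusted p = 0.0437). For Ackr3, the same term gave -1.20 for MLP minus aSHF with cardiac muscle (edgeR adjusted p = 0.0229). Both calls were lost after thinning, and that of Apln also with doublets kept and with barcodes of at least 1000 genes. They were lost without the replicate block as well, where no gene at all was called in either pair. Fits with any 1 library left out kept the directions, but they leave 1 library in a genotype. Ackr3 also had values on opposite sides of 0 in types whose difference was not tested. Both replicates were higher in cKO in the aSHF and lower in neuronal cells, with log2 fold changes that differ by -2.14. Both replicates were likewise higher in the mesenchyme and lower in neuronal cells, with log2 fold changes that differ by -1.47. The mesenchymal value lay just below 0 with doublets kept, where the cells were clustered anew. The neuronal value rests on 13 to 45 UMIs per library, and most of these levels were below those of the low-UMI barcodes. Those barcodes held 3 to 37 Ackr3 UMIs per library, so this order is not resolved. With 2 libraries per genotype, no single library could be tested for standing apart from its group.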

How the results depend on the processing

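The count of members past an adjusted p of 0.05 in the named types was 0 in the fit reported, 2 with no low-count filter (Ackr3 in aSHF and Apela in epithelium) and 1 with library totals and no TMM (Ackr3 in aSHF). Beside these, no low-count filter called 96 of 21458 genes in the aSHF and 168 of 22510 in the epithelium. Library totals called 20 of 13305 genes in the aSHF. The calls over all genes depended more on the fit: 572 summed over the named types became 0 with no replicate block, 1558 with no low-count filter, 120 by DESeq2, 330 with doublets kept and 0 to 2 when 1 library was left out. Of 42 member fits, 2 changed sign with no replicate block, 4 by DESeq2, 7 with doublets kept and 10 with barcodes of at least 1000 genes, and 6 of 31 after thinning. Fits with 1 library left out had no replicate block, so kit and genotype were mixed in them. There, 11 and 13 of 42 changed sign without the Rep1 libraries (cHet, cKO), and 17 and 10 of 41 without those of Rep2. Cxcl12 in the mesenchyme, 237.7 CPM, was 200.8 CPM with doublets kept and 217.6 CPM with the members left out of the clustering. Both settings clustered the cells anew and left a cluster led by Pcdh9 unnamed (2913 and 3901 cells). In the reported clustering the cluster led by Pcdh9 was named mesenchyme and had 298.2 CPM of Cxcl12. The interaction of Apln lost its call with thinned cells (0.97), doublets kept (0.88), barcodes of at least 1000 genes (1.04) and no replicate block (0.84). That of Ackr3 lost it with thinned cells (-1.22) and no replicate block (-1.26). With 1 library left out, which leaves 1 library in a genotype, the values were 0.77 to 1.13 for Apln and -1.50 to -1.12 for Ackr3. Interaction alternatives were chosen after seeing the data.

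Some log2 fold changes turned direction. With 1 library left out, the replicate block was dropped, so kit and genotype were mixed. The values then ran from -0.14 to 0.88 for Apln in the endothelium (negative without cHet replicate 1, -0.029, or cKO replicate 2) and from -0.063 to 0.60 for Ackr3 in the mesenchyme (without the same libraries, -0.0053 for the first). They ran from -0.81 to 0.19 for Apln in the ectoderm and from -1.89 to 0.0085 for Cxcl12 in the otic vesicle. With doublets kept, and the cells clustered and named anew, Ackr3 in the mesenchyme was -0.0026 and Cxcl12 in the otic vesicle 0.024. Cxcl12 in the aSHF was -0.11 with barcodes of at least 1000 genes, and Apela in the aSHF -0.068 in Rep1 alone. The cause was not tested.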

Other observations

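Apela in the endoderm had an edgeR quasi-likelihood adjusted p of 0.269 in the fit reported, 0.0141 with no low-count filter and 0.0115 with the 6 genes left out of the clustering, and its other alternatives gave 0.0611 to 1.0. In the endoderm, 43 of 19708 genes were called with no low-count filter and 55 of 11717 with the 6 genes left out, against 9 of 11249 in the fit reported. With the 6 genes left out, the cells were clustered anew and the endoderm had 692 cells, against 583. It held 108 and 195 cells in cHet and 68 and 321 in cKO, against 73 and 163 in cHet and 63 and 284 in cKO. The part of this change was not tested. Over all cells, the log2 fold change of Ackr3 was 0.36 (SE 0.12, edgeR adjusted p = 0.82), and the other 5 genes lay between -0.16 and 0.11.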
